A study of Mus musculus with 7 samples.

Results

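The probes of 4 mouse genes, Lep, Tert, Ifng and Prss2, were examined among the 382 CpG probes of a custom Illumina GoldenGate methylation array. All 4 carried a high or intermediate methylation level in DNA of brain origin, and each gene is known for its activity outside the nervous system. They were found by the symbol that opens the probe name, which gave 4 probes of 382, 1 per gene. The genes had been selected on their beta values in the brain arrays, so those values are given as a description and no test was made on them. A beta value is the methylated share of a probe's signal, from 0 for unmethylated to 1 for methylated.

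The brain DNA was hybridised to 2 arrays, titled A2B5_mas, after a surface ganglioside found on glial precursors, and PSA-NCAM_mas, after the polysialylated form of a neural adhesion protein found on young migrating neurons. The other 5 arrays are titled Met_0, Met_25, Met_50, Met_75 and Met_100 and carry the tissue label DNA. Each number was taken as the nominal percent to which control DNA had been methylated, a reading that the labels do not state. All 7 arrays are labelled C57BL/6, an inbred strain, with no genotype, treatment, age or sex given, and how the cells behind the brain arrays were isolated or pooled is not stated. Each title is 1 array, so there was no replicate of any level. In bulk DNA, a share of cells methylated on both alleles and a partial methylation in every cell cannot be told apart.

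Lep encodes leptin, the fat cell hormone that reports energy stores to the hypothalamus. Tert encodes the catalytic subunit of telomerase, the enzyme that extends chromosome ends in germ cells and stem cells. Ifng encodes interferon gamma, a cytokine of activated T cells and natural killer cells, and Prss2 encodes a trypsinogen, the precursor of the digestive protease trypsin that acinar cells of the pancreas secrete. Cytosine methylation at CpG dinucleotides of a promoter commonly accompanies a silent gene. The Lep promoter is known to lose methylation as fat cells mature, and the Ifng promoter as T cells take on the type 1 helper fate.

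The promoters differ widely in how many CpG sites they offer. The 250 bases before the annotated start of each gene, from RefSeq on the mouse build GRCm38.p6, are shown 5′ to 3′ with each CG in capitals. They are shown because CpG sites are what the array measures, although the files do not state which CpG each probe reads. The windows lie on the plus strand at chr6:29059971-29060220 for Lep, chr13:73626661-73626910 for Tert, chr10:118440796-118441045 for Ifng and chr6:41521526-41521775 for Prss2.
Lep: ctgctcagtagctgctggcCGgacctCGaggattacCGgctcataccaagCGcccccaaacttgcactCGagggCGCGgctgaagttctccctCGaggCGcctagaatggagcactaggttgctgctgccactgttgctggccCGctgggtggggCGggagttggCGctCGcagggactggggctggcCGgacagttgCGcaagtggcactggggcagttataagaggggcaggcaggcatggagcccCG
Tert: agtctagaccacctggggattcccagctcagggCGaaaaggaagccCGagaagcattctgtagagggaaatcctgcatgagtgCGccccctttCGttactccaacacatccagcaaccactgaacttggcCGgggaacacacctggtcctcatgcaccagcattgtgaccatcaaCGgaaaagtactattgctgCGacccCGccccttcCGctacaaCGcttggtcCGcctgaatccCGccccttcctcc
Ifng: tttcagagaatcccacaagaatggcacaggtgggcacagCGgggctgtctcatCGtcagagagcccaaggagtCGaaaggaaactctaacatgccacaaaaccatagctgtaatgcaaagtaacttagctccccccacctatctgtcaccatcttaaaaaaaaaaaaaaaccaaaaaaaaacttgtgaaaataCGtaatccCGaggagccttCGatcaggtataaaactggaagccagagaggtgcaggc
Prss2: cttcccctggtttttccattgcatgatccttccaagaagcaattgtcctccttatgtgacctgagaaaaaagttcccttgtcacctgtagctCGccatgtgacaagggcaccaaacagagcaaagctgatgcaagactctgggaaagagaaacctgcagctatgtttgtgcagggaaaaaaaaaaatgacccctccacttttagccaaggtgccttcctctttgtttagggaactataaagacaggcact

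The Lep window held 16 CG and the Tert window 12, whereas the Ifng window held 6 and the Prss2 window 1. The G and C content was 65.6% for Lep, 57.2% for Tert, 45.2% for Ifng and 45.6% for Prss2. A CG reads the same on both strands. At least 1 CG was present in 92.1% of all 32851 RefSeq windows of this length and in 98.6% of the windows found for 284 of the array's probes.

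Lep had the highest brain level of the 4 genes and the lowest value in Met_0. Its beta value was 0.889 in A2B5_mas and 0.860 in PSA-NCAM_mas, against 0.0474 in Met_0, 0.433 in Met_25, 0.540 in Met_50, 0.651 in Met_75, then 0.932 in Met_100. Both brain arrays stood above every Met array except Met_100. When each brain value was read off the probe's own Met curve, made monotone where needed and straight between neighbouring Met arrays, Lep stood at 96.1% in A2B5_mas and 93.6% in PSA-NCAM_mas.

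Tert was almost as high in A2B5_mas and somewhat lower in PSA-NCAM_mas. It had 0.887 in A2B5_mas and 0.814 in PSA-NCAM_mas, against 0.132 in Met_0, 0.675 in Met_25, 0.714 in Met_50, 0.786 in Met_75, then 0.926 in Met_100. The brain values again lay between Met_75 and Met_100. On the Met curve they read 93.0% in A2B5_mas and 79.9% in PSA-NCAM_mas.

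Ifng stood at an intermediate level that was nearly equal in both brain arrays. It had 0.609 in A2B5_mas and 0.601 in PSA-NCAM_mas, against 0.0872 in Met_0, 0.434 in Met_25, 0.547 in Met_50, 0.624 in Met_75, then 0.80 in Met_100. Both brain values fell between Met_50 and Met_75. They read 70.1% in A2B5_mas and 67.7% in PSA-NCAM_mas on the Met curve.

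Prss2 differed from the other 3 genes in its control DNA. Its beta value was 0.717 in A2B5_mas and 0.668 in PSA-NCAM_mas, against 0.418 in Met_0, 0.523 in Met_25, 0.676 in Met_50, 0.715 in Met_75, then 0.792 in Met_100. A2B5_mas lay just above Met_75 and PSA-NCAM_mas just below Met_50. The readings were 75.9% in A2B5_mas and 48.6% in PSA-NCAM_mas, on either side of the stretch from Met_50 to Met_75, over which the probe rose by only 0.0382. Without Met_50 the PSA-NCAM_mas reading was 62.8%. Trypsinogens form a family of closely similar genes, and whether the probe reads Prss2 alone was not tested.

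**Figure D1:**
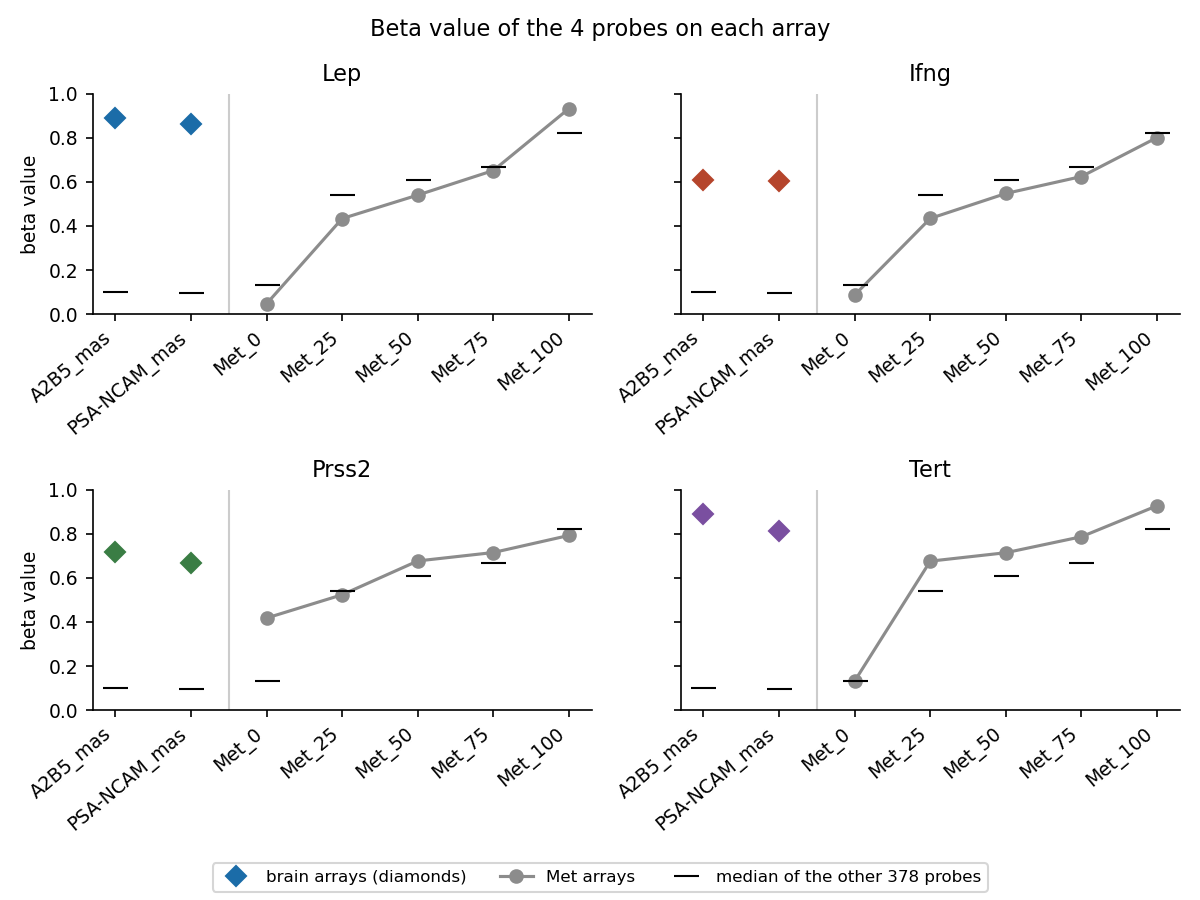
Beta value (vertical axis, 0 to 1) of Lep, Ifng, Prss2 and Tert on the 2 brain arrays (diamonds) and the 5 Met arrays (circles joined by lines), 1 array per point, with a dash at the median of the other 378 probes. The brain diamonds of all 4 genes lie far above the brain dashes near 0.1, and Prss2 alone starts the Met series near 0.42.

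The group stood well above the rest of the array in brain DNA. In A2B5_mas the 4 probes had a median of 0.802, against 0.0996 for the other 378. In PSA-NCAM_mas they had a median of 0.741, against 0.0946. By the mean of both brain arrays, Lep ranked 5 of 382, Tert 11, Prss2 26 and Ifng 37, counted from the highest. These ranks restate the choice of the genes. Another 33 probes were at least as high as Ifng, the lowest of the 4, so a high brain level was shared with many probes of other functions. In Met_100 Lep ranked 19, Tert 31, Ifng 209 and Prss2 218.

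Set against Met_0, all 4 genes were at least 0.2 higher in both brain arrays, which held for 14.9% of the 382 probes. The brain arrays exceeded Met_0 by 0.841 in A2B5_mas and 0.812 in PSA-NCAM_mas at Lep, and by 0.755 and 0.681 at Tert. The excess was 0.522 and 0.514 at Ifng and 0.30 and 0.25 at Prss2, in the same order of arrays. A beta value over 0.8 in both brain arrays was found at Lep and Tert, 2 of the 4, and at 2.88% of all probes. Since brain levels chose the genes, nothing is read from either count. None of the 4 reached its own Met_100 value: the brain arrays were lower by 0.0433 in A2B5_mas and 0.0722 in PSA-NCAM_mas at Lep, by 0.0391 and 0.113 at Tert, by 0.0746 and 0.124 at Prss2 and by 0.192 and 0.199 at Ifng.

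**Figure D2:**
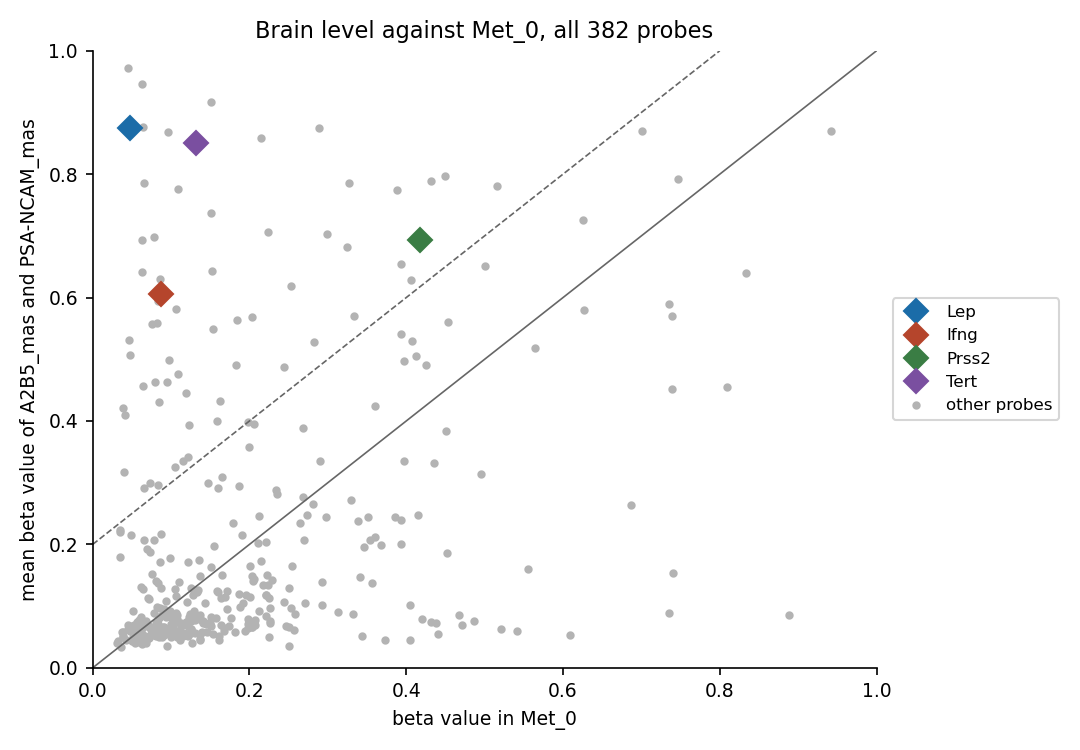
Mean beta value of the 2 brain arrays (vertical axis) against the beta value in Met_0 (horizontal axis) for all 382 probes, with equality as a solid line and a brain excess of 0.2 as a dashed line. Lep, Tert and Ifng lie at the upper left with Met_0 values from 0.0474 to 0.132, and Prss2 lies to their right at 0.418.

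Among probes of like brain level, the Met_0 value separated Prss2 from the others. The 29 other probes whose mean brain level fell within the range of the 4 genes, 0.605 to 0.874, had a median of 0.324 in Met_0 and ran from 0.0623 to 0.942. Prss2 was above that median at 0.418, while Tert, Ifng and Lep were below it. Prss2 ranked 37 of 382 in Met_0 from the highest, Tert 190, Ifng 263 and Lep 364. Probes thus differed widely in their values in the same control DNA, Met_0, and the cause was not tested. Levels of different probes are set side by side here with that limit.

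The Met series asked whether each probe follows the amount of methylated control DNA. Lep, Tert, Ifng and Prss2 were each higher at every step of the series. The fitted slope over the full range of the series, in beta value per 100 units of the title number, was 0.795 for Lep, 0.680 for Tert, 0.647 for Ifng and 0.376 for Prss2, against a median of 0.534 for the other 378 probes. An exact two-sided permutation test over the 120 orders of the 5 arrays gave p = 0.0167 for each gene, the smallest it can give, and an adjusted p of 0.0206 (Benjamini-Hochberg over all 382 probes). The same call was made for 87.7% of all probes, so the rise is not particular to these genes. After quantile normalization over the 7 arrays, or with any 1 Met array left out, the permutation test called 0 of the 4 after adjustment. It also called 0 of all 382 probes in each of these settings, so the loss is not particular to these genes. At an unadjusted p under 0.05 it called 1 of the 4 after quantile normalization, 4 without Met_25, 2 without Met_75 and 0 without each of the others. All probes were not counted at that unadjusted limit. The slopes of the 4 genes ran from -0.209 to 0.493 after quantile normalization, so not all of them rose on that scale. All probes were read on the same 5 arrays and are not independent, and how the graded DNAs were prepared is not stated.

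The 4 curves had different shapes. Met_25 covered 68.4% of the distance between Met_0 and Met_100 at Tert, 48.6% at Ifng, 43.6% at Lep and 28.2% at Prss2, against a median of 60.1% for the other responsive probes, those with a rise of at least 0.3. Tert therefore made most of its rise in the first step, of 0.543, and Prss2 made its largest step, of 0.153, between Met_25 and Met_50. Lep had the largest last step of the 4, 0.281 from Met_75 to Met_100, where the median step over all probes was 0.118. At Prss2 the Met_50 value departed by 0.0575 from the midpoint of Met_25 and Met_75. The root mean square of this departure over the 331 responsive probes was 0.0283, and 11 of them departed further than Prss2.

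The next comparison set A2B5_mas, named for a glial marker, against PSA-NCAM_mas, named for a neuronal one. Every one of the 4 genes was higher in A2B5_mas, by 0.0736 at Tert, 0.0496 at Prss2, 0.0289 at Lep and 0.00745 at Ifng. Their median difference was 0.0392, against 0.00391 for the other 378 probes. After quantile normalization over the 7 arrays the median was 0.00419, with Ifng at -0.0256, Prss2 at 0, Lep at 0.00837 and Tert at 0.0277. A higher value in A2B5_mas, of any size, was found at 65.2% of all probes, and a difference of at least 0.05 at 12% of all probes and at 1 of the 4 genes, Tert. With 1 array per title there was no test.

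A yardstick of array error came from the middle of the Met series. Over responsive probes the departures of Met_50 correspond to 0.0326 as the SD of the difference between any 2 arrays, which also holds any real bend of the curves. Before quantile normalization the differences at Tert and Prss2 exceeded this value and those at Lep and Ifng did not. After it, Tert at 0.0277 and Prss2 at 0 were also below the value, which was itself taken before normalization. The yardstick describes single probes and does not size a displacement of a whole array.

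Most probes of this level differed in the same direction. Of the 29 other probes in the brain range of the 4 genes, 25 were also higher in A2B5_mas. Their median difference was 0.0541 and their highest 0.101. Tert differed more than any of the 13 other responsive probes within 0.1 of its own brain level, whose median was 0.0390 and highest 0.0689. Prss2 was exceeded by 14 of 20 such neighbours, Lep by 9 of 14, and Ifng by 22 of 25, whose median difference was 0.0622. Ifng was thus more alike in both arrays than most probes of its level, and neither this nor the larger gap at Tert could be set against replicate error.

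**Figure D3:**
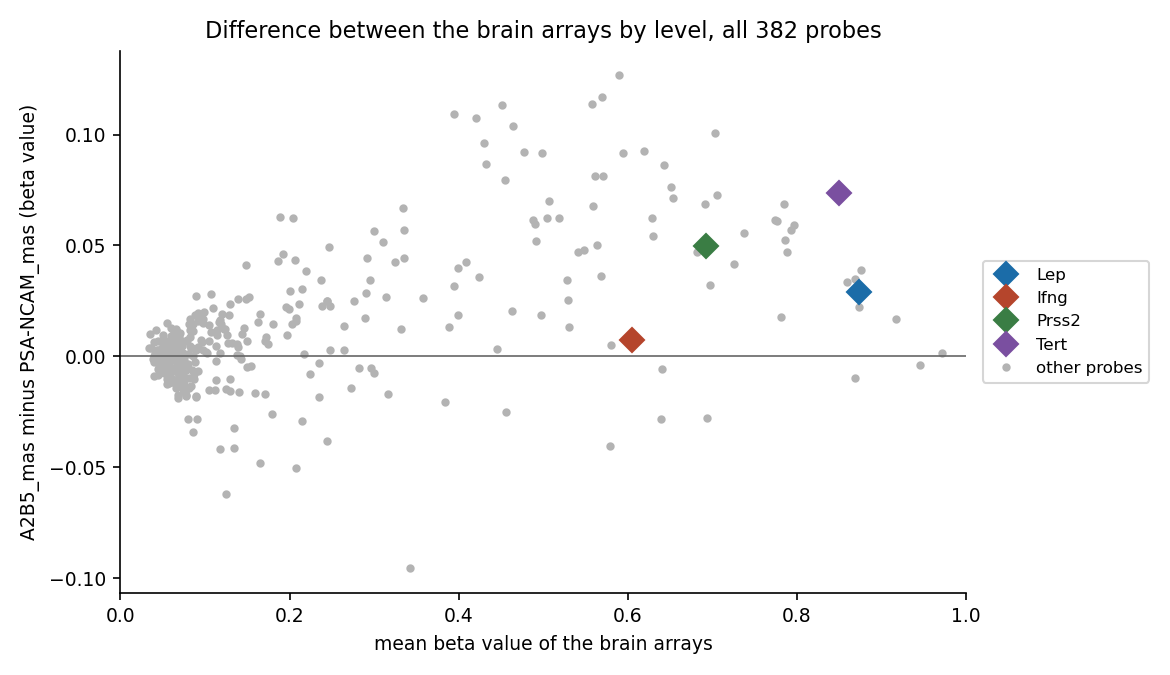
Difference between A2B5_mas and PSA-NCAM_mas in beta value (vertical axis) against the mean of both arrays (horizontal axis), 1 point per probe for all 382 probes. Most probes above 0.4 lie over the zero line, with Tert at 0.0736 and Ifng at 0.00745 before quantile normalization, which puts Ifng at -0.0256.

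The probes most like each gene across the 7 arrays belonged to genes of varied functions. Likeness was taken as the smallest mean absolute difference in beta value over the 7 arrays. Nearest to Lep were Ppp2r5c, a regulatory subunit of protein phosphatase 2A, at 0.0464, Brs3, an orphan receptor of the bombesin family, at 0.0503, and Fshr, the follicle-stimulating hormone receptor, at 0.0656. Nearest to Tert were the neuromedin U receptor Nmur1 at 0.0263, the dopamine receptor Drd3 at 0.0377 and the serotonin receptor Htr1d at 0.0613. Ifng was followed by Tectb, a protein of the tectorial membrane of the inner ear, at 0.0273, the muscarinic receptor Chrm5 at 0.0416 and the histamine receptor Hrh4 at 0.0493.

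Prss2 had Trhr2, a receptor for thyrotropin-releasing hormone, at 0.0343, F2, prothrombin, at 0.0356 and Rxfp2, a receptor of the relaxin family, at 0.0657. Trhr2 and F2 shared the high start of the series with Prss2, at 0.411 and 0.406 in Met_0. Among the 4 genes the mean absolute differences ran from 0.0984 for Lep and Tert to 0.176 for Ifng and Tert.

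Gene lists drawn up around the themes of these 4 genes held a wide range of brain levels. Over all 382 probes the brain means had a median of 0.0974, and 66% of probes were under 0.2 in both brain arrays. Of the feeding and energy balance list, which holds receptors through which leptin-responsive circuits act, 23 probes were on the array and their brain means had a median of 0.0920. Of these, 14 were under 0.2 in A2B5_mas and in PSA-NCAM_mas alike, and 3 exceeded Met_0 by at least 0.2 in each, where the share of all probes was 14.9%. By these measures the list was close to the whole array. A beta value over 0.8 in both brain arrays was found at 3 of the 23, against 2.88% of all probes. The list was chosen with earlier results of these data known, so nothing is read from that count. The 3 with a brain mean of at least 0.5 were Glp2r, the intestinal glucagon-like peptide 2 receptor, at 0.885 in A2B5_mas and 0.863 in PSA-NCAM_mas, Nmur1 at 0.883 and 0.853, and Brs3 at 0.876 and 0.842. The melanocortin receptor Mc3r, an energy balance receptor of the hypothalamus, stood at the other end with 0.0402 and 0.0401.

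The list for exocrine pancreas, secretion and protease-activated receptors had 10 probes with a median of 0.129. Of these, 6 were under 0.2 in both brain arrays, against 66% of all probes, and 1 exceeded Met_0 by 0.2 in both, against 14.9%. F2rl1, the protease-activated receptor that trypsin cleaves, had 0.0938 in A2B5_mas and 0.0895 in PSA-NCAM_mas, against 0.129 in Met_0. Vipr1, a receptor for vasoactive intestinal peptide, had 0.0405 and 0.0489, against 0.405 in Met_0. Of the closest partners of the other genes, Lepr, Ifngr1, Ifngr2 and Terc were not among the probes analysed here.

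The self-renewal and cell cycle list had 5 probes with a median of 0.0560. Of these, 4 were under 0.2 in both brain arrays, against 66% of all probes, and 0 exceeded Met_0 by 0.2 in both, against 14.9%. Myc, a transcription factor known to activate Tert, had 0.0517 in A2B5_mas and 0.0483 in PSA-NCAM_mas, against 0.0651 in Met_0. Hes1, a Notch target of neural progenitors, had 0.0361 and 0.0324, against 0.0357 in Met_0. The highest brain mean of the 5 was 0.195. The immune list had 2 probes, the sphingosine 1-phosphate receptor genes Edg1 and Edg5, with brain means of 0.0815 and 0.0645. Both were under 0.2 in both brain arrays, against 66% of all probes, and 0 exceeded Met_0 by 0.2 in both, against 14.9%. With 2 of 26 listed symbols on the array, this list does not describe immune genes as a group.

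Hormone receptors of the pituitary and reproductive organs formed a list of 14 probes with a median of 0.233. Of these, 7 were under 0.2 in both brain arrays, against 66% of all probes, and 4 were at least 0.2 above Met_0 in both, against 14.9%. Fshr, active in the gonads, had 0.680 in A2B5_mas and 0.708 in PSA-NCAM_mas, against 0.0623 in Met_0, and was the one probe of this list with a brain mean of at least 0.5. The melanocortin receptor Mc5r, active in exocrine glands, had 0.0504 and 0.0488. This list of hormone receptors thus held both high and low levels. Whether its genes are active in the brain was not tested.

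Neural genes were listed for the brain label. The list had 16 probes with a median brain mean of 0.0754, and 10 of them were under 0.2 in both brain arrays, against 66% of all probes. These levels do not tell a brain origin from another, since the whole array was mostly low. The 2 with a brain mean of at least 0.5 were Gfap, the intermediate filament of astrocytes, at 0.640 in A2B5_mas and 0.549 in PSA-NCAM_mas, and Nkx6-2, a homeobox factor of oligodendrocytes, at 0.864 and 0.874. Nkx6-2 fell at every step of the Met series, from 0.942 in Met_0 to 0.824 in Met_100. Its level thus ran opposite to the title numbers, and the cause was not tested. The lists were chosen with earlier results of these data known, and Cckar, Hes1 and Sox2 each belong to 2 of them.

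The promoter windows were finally set beside the brain levels, as a description across genes. Over the 284 probes with a window, the number of CG and the mean brain level had a Pearson r of -0.319 and a Spearman rho of -0.348. The probes share the brain arrays, their positions relative to the windows are not stated, and genes with several starts entered with the mean of their windows. Of 67 genes with at most 5 CG, 22 had a brain mean of at least 0.5 (32.8%), and of 156 genes with 12 or more CG, 10 had (6.41%). Prss2, with 1 CG, belonged to the sparse kind, where the 13 genes with at most 1 CG ran from 0.0819 to 0.917 with a median of 0.394.

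Lep, with 16 CG, and Tert, with 12, were among the 156 genes with 12 or more CG, a limit equal to the count of Tert itself. Tert was near the median of 12.5 CG over the 284 probes with a window: 143 had more CG and 128 fewer. Of the 110 genes with at least 16 CG, the number in the Lep window, the median brain mean was 0.0765, and 7 reached 0.5. Lep ranked 2 among them. Ifng, with 6 CG, fell among the 61 genes with more than 5 and fewer than 12 CG, of which 9 had a brain mean of at least 0.5 (14.8%) and whose median was 0.0818.

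**Figure D4:**
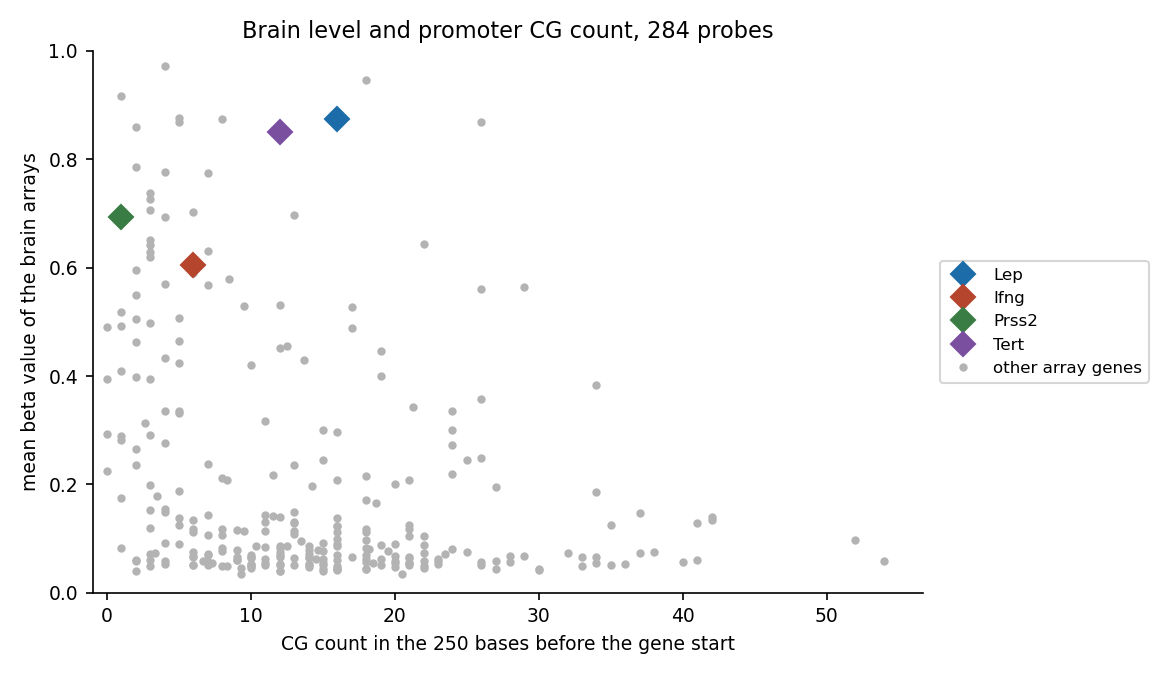
Mean beta value of the 2 brain arrays (vertical axis) against the number of CG in the 250 bases before the gene start (horizontal axis) for the 284 probes with a RefSeq window. Most genes with 12 or more CG lie near 0.1, and Lep with 16 CG and Tert with 12 lie above 0.8. The vertical axis is the level on which these genes were chosen.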

How the data were processed

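Bisulphite-converted mouse DNA was hybridised to a custom Illumina GoldenGate array and labelled with Cy3 and Cy5 by the maker's procedure, per the labels' protocols. The deposited table holds beta values, methylated fractions from 0.0282 to 0.972 with 0 missing, for 382 probes on 7 arrays. How signals were corrected and normalized, with which software, and the genome build were not given in the sources used here; any of these could shift the levels. Precision is limited by 1 array per title.

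Computations ran in Python 3.11.15 (scikit-learn 1.9.0, pandas 2.3.3, numpy 2.4.6) and plots in matplotlib 3.10.9. Slopes over the Met arrays were tested for all 382 probes by exact permutation with Benjamini-Hochberg adjustment, at an adjusted p of 0.05. Met curves were made monotone by isotonic regression, and brain values below Met_0 read as 0. The trend and reading code was tested on simulated data. All 382 probe symbols matched a RefSeq gene of GRCm38.p6, by current or unique older name.

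The 4 genes and the lists were chosen with earlier results of these data known. Named genes are the 4, the 3 probes most like each, list members with a brain mean of at least 0.5 or under 0.05, and the closest partner genes. Edg1, Edg5, Cckar and Sox2 were named outside that rule, after their values were seen. Alternatives covered scale, normalization, limits and arrays left out.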

Additional observations from a re-analysis of the deposited data

How the results depend on the processing

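Of 83 alternative values, 57 stayed with the main result, judged by the same call for the trend, a factor of 1.5 for counts, 0.0326 for differences of beta values and the array SD as points of the curve for readings. On the log2 scale of the difference only its sign was judged. The rising trend of the 4 genes over the Met arrays held with the rank correlation and on the log2(beta / (1 - beta)) scale. Quantile normalization over the 7 arrays, which by construction gives every Met array the same distribution, left 0 of 4 by the permutation test with adjustment, and 1 at an unadjusted p under 0.05. Leaving out any 1 Met array also left 0. The smallest possible p was then 0.0417 without Met_25 or Met_75, where 4 and 2 genes had an unadjusted p under 0.05, and 0.0833 in the remaining cases, where none could. The slopes stayed positive in the fits with 1 Met array left out, from 0.330 to 0.858. After quantile normalization they ran from -0.209 to 0.493, so not all 4 genes rose there.

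All 4 genes exceeded Met_0 by 0.1 in both brain arrays, 3 did so by 0.3 or after quantile normalization, and 1, Lep, exceeded Met_25 by 0.2. The 2 genes over 0.8 in both brain arrays became 0 at a limit of 0.9 and 1, Lep, by readings over 80%. The limit of 0.8 was passed by 2.88% of all probes, which were not counted at the other limits. The median difference between A2B5_mas and PSA-NCAM_mas, 0.0392, became 0.00419 after quantile normalization, where Ifng was at -0.0256 and Prss2 at 0; the cause was not tested. The median of the 8 readings, 77.9%, became 82.9% with a straight line from Met_0 to Met_100 and, in an alternative chosen after seeing the data, 70.6% without Met_75. Of 52 alternative values for single genes, 14 moved and 0 were counted as reversed. A change of sign was counted as a reversal only where the main difference itself exceeded 0.0326. Ifng, whose sign changed after quantile normalization, was therefore counted as moved. No paired analysis was possible because each title is 1 array.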
